A study of Homo sapiens with 4 samples.

Results

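The clustered protocadherins are 53 protein-coding genes on chromosome 5, taken from GENCODE release 44 as every protein-coding gene there whose symbol begins with PCDHA, PCDHB or PCDHG, out of 19970 protein-coding genes on chromosomes 1 to 22 and X. They form 3 subclusters on the plus strand of hg38: 15 PCDHA genes at chr5:140786136-141012347, 16 PCDHB genes at chr5:141051374-141249365 and 22 PCDHG genes at chr5:141330514-141512977. Peaks and loops were read from 50 kb before the first gene to 100 kb after the last one, a window at chr5:140736136-141612977 that held 37 of 97364 SMC1 peaks and 47 of 63555 CTCF peaks. A loop was counted when at least 1 of its anchors lay there, which gave 43 of 28012 loops in the SMC1-labelled list and 71 of 80487 in the CTCF-labelled one.

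Both targets were profiled in HG00731, a lymphoblastoid cell line (LCL), that is B cells immortalized with Epstein-Barr virus, and the labels give no treatment. The growth protocol in the labels names another line number, and HG00731 follows the titles, source names and characteristics. HiChIP joins DNA ends that lie close together in the nucleus and then pulls down the fragments bound by 1 protein, so it reports both where the protein sits and which fragments touch. SMC1, a structural subunit of the cohesin ring, was profiled after crosslinking with formaldehyde and then ethylene glycol bis(succinimidyl succinate) (FA-EGS), and CTCF, the zinc-finger protein at which cohesin tends to stop, after formaldehyde alone. There were 2 replicates per target, and the authors pooled them before they called peaks and loops, so every value below describes 1 pooled list and has no replicate error. The SMC1 and CTCF libraries therefore differ in crosslinking as well as in antibody, and these cannot be told apart. Of 5 B cell genes, CD79A, CD79B, MS4A1, PAX5 and CD40, 5 had an SMC1 peak within 1 kb of a start, 3 a CTCF peak, and 4 lay in an anchor of each loop list. Among all protein-coding genes the shares were 59.1% and 41.9% for the peaks and 23% and 45.3% for anchors of the SMC1-labelled and CTCF-labelled lists, so these counts are a weak check of the cell type.

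Clustered protocadherins are cell-surface adhesion proteins best known from neurons, where each cell transcribes a small choice of isoforms and so gains an identity on its surface. Every PCDHA and PCDHG gene has its own promoter and large first exon, which is spliced to constant exons shared by its subcluster, whereas a PCDHB gene is a single exon. CTCF binds at many of the promoters, and cohesin-dependent contacts bring a promoter to enhancers that lie beyond the genes. The present assays measured binding and contact in B-lineage cells and not the expression of the genes.

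The member promoters carried a short shared sequence that is shown here because the PCDHB and PCDHG subclusters differed in what surrounds it. It is the core of a motif long described upstream of clustered protocadherin genes as the CGCT box. The sequences come from RefSeq (GRCh38.p14), 30 bases each on the plus strand, 5′ to 3′, and the capitals mark the 5-base word CGCTG. The first 3 lines are from PCDHA, the next 4 from PCDHB and the last 5 from PCDHG, and the members were chosen after their values were seen.
PCDHA1, chr5:140786090-140786119: gccacatgatgtCGCTGtacaccacaaagt
PCDHA8, chr5:140841134-140841163: gccacatgatgtCGCTGtctaccaagaagt
PCDHAC2, chr5:140966369-140966398: gcagtccgggttCGCTGtccgccacttcgg
PCDHB9, chr5:141187078-141187107: gccacaaggtggCGCTGcagactgaagaga
PCDHB10, chr5:141192303-141192332: gccacacggtggCGCTGcaggctaaagaga
PCDHB13, chr5:141213869-141213898: gacgcgtggtggCGCTGcaggataagaagg
PCDHB15, chr5:141245318-141245347: aacgcatggtggCGCTGcaggctaaggctt
PCDHGA2, chr5:141338707-141338736: gcctctgagcgtCGCTGttgaccacctaag
PCDHGB5, chr5:141397867-141397896: gactctgggcgcCGCTGttggccaaagtgc
PCDHGB6, chr5:141407928-141407957: gcctctgggcgcCGCTGtcggccagtgcag
PCDHGC3, chr5:141475884-141475913: gactctgtgtgcCGCTGtcggccaatgaag
PCDHGC4, chr5:141484956-141484985: gagcccgggagcCGCTGtctgccaatcggg

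The promoter table, which holds 250 bases before and 50 bases after a start, had entries for 47 of the 53 members. PCDHA3, PCDHA13, PCDHB6, PCDHB11, PCDHGA12 and PCDHGC5 were not matched. CGCTG, searched on both strands, was present in 41 of the 47 members (87.2%), against 64.6% of 15315 genes with a promoter in the table. On the sense strand and within the 100 bases before the start it was present in 38 members (80.9%), against 19.5% of all genes. By subcluster this was 8 of 13 in PCDHA, 11 of 14 in PCDHB and 19 of 20 in PCDHG, with positions counted from the starts of the promoter table. PCDHGB2 carried the word 199 bases before the table's start, which is at -57 bp from its start in GENCODE. The word of 6 bases CGCTGT, which contains CGCTG, was found on either strand in 7 of 13 PCDHA, 1 of 14 PCDHB and 17 of 20 PCDHG promoters, against 16.7% of all genes. In sense orientation within the last 100 bases, CGCTGT was in 23 of 47 members, against 3.21% of all genes. In PCDHB the longer word was at PCDHB3 alone. The word and its neighbours were picked after the sequences had been read, and the members are paralogs, so these shares describe a family and are not independent counts.

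**Figure D1:**
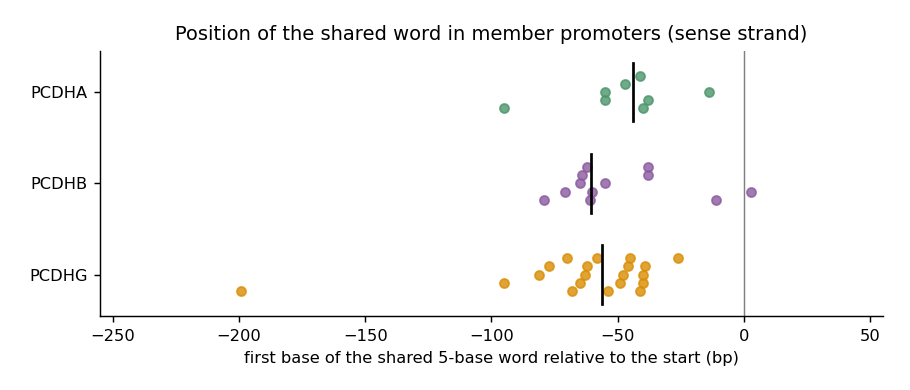
Position of the 5-base word in the 40 member promoters that hold it on the sense strand, as the distance of its first base from the start in the promoter table in bp, 1 dot per gene, with a vertical bar at the median of each subcluster. The medians lie at -44 bp in PCDHA, -60.5 bp in PCDHB and -56 bp in PCDHG, and the dot at -199 bp is PCDHGB2, where the word lies at -57 bp from the GENCODE start.

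The second set of sequences comes from inside CTCF peaks, read from hg38 on the plus strand. Each is 61 bases with the best match to the CTCF motif in capitals, and a strand is called forward where the match reads with its G-rich side on the plus strand. The motif, 19 bp wide, was learned from the 3000 CTCF summits outside chromosome 5 with the highest -log10 q, and a match needed at least 10 bits. The lines show 4 sites in PCDHA first exons (all forward), the site between PCDHA and PCDHB (reverse), the site before PCDHG (forward) and 3 sites in introns of DIAPH1, the gene that follows PCDHG (all reverse). DIAPH1 encodes a formin that builds actin filaments.
PCDHA4 exon, chr5:140807620-140807680: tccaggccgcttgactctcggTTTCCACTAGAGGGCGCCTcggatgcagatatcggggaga
PCDHA5 exon, chr5:140822036-140822096: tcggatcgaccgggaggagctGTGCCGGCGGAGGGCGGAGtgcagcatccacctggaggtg
PCDHA8 exon, chr5:140841754-140841814: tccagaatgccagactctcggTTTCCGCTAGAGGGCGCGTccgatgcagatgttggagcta
PCDHA11 exon, chr5:140869536-140869596: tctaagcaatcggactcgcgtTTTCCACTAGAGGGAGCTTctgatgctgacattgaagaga
PCDHA to PCDHB gap, chr5:141041347-141041407: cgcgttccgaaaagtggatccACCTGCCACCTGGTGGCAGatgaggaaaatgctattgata
PCDHB to PCDHG gap, chr5:141326145-141326205: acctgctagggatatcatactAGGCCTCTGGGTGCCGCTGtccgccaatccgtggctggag
DIAPH1 intron, chr5:141524869-141524929: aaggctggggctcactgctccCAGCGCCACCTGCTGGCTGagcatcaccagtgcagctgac
DIAPH1 intron, chr5:141558009-141558069: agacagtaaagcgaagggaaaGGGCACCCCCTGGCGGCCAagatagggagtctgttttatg
DIAPH1 intron, chr5:141564370-141564430: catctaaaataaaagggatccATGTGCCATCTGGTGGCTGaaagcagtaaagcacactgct

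The first question was which members carried a peak at the promoter, that is a summit within 1 kb of a transcription start. PCDHG promoters were widely occupied by both proteins. PCDHA and PCDHB promoters carried CTCF peaks at some genes, with a lower median -log10 q than in PCDHG, and few or no SMC1 peaks. SMC1 peaks lay at 0 of 15 PCDHA, 2 of 16 PCDHB (12.5%) and 14 of 22 PCDHG genes (63.6%), 16 of 53 in all (30.2%), against 59.1% of all protein-coding genes. CTCF peaks lay at 5 of 15 PCDHA (33.3%), 6 of 16 PCDHB (37.5%) and 17 of 22 PCDHG genes (77.3%), 28 of 53 in all (52.8%), against 41.9% of all genes. Both peaks were found at 15 members (28.3%), 14 of them in PCDHG and 1 in PCDHB, against 39.4% of all genes. PCDHB14 had an SMC1 peak alone, and 24 members had neither. For SMC1 the share in PCDHG was near that of all genes and those in PCDHA and PCDHB far below it, and for CTCF PCDHG stood above all genes and the other subclusters somewhat below. No test across replicates was possible with 1 list per target.

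**Figure D2:**
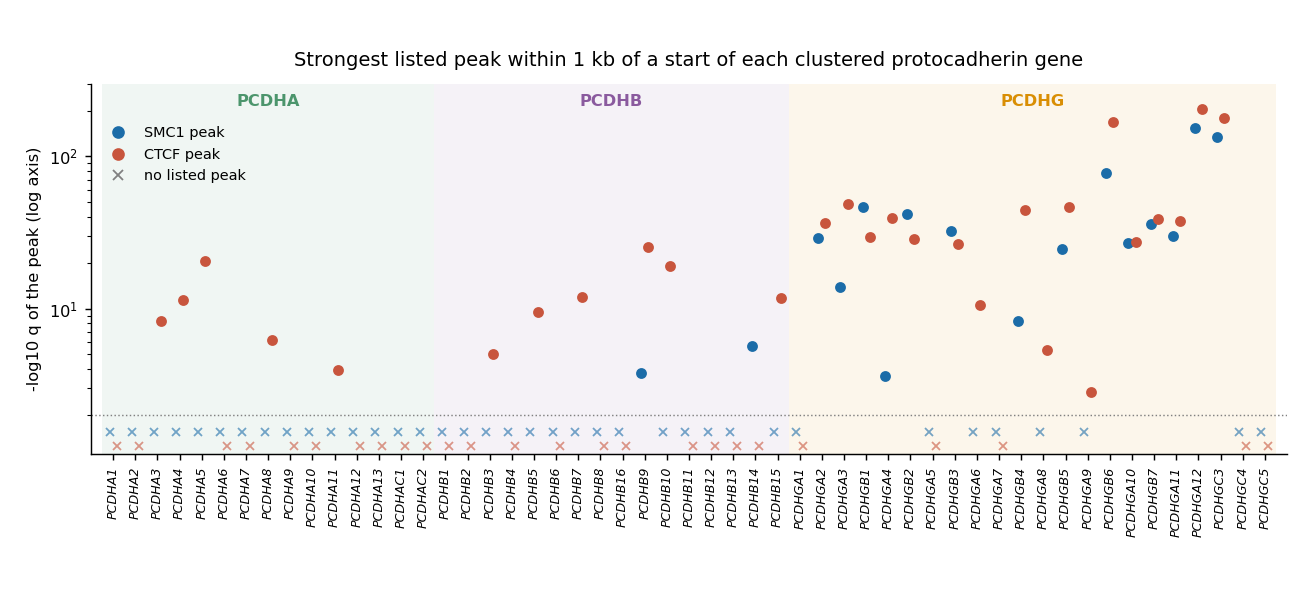
Strongest SMC1 and CTCF peak within 1 kb of a start of each member, in order along chromosome 5, as -log10 q on a log axis, with crosses below the dotted line at 2 (the q-value limit of the lists) for members without a listed peak. PCDHGA12, PCDHGC3 and PCDHGB6 stand above all other members in both lists, and no PCDHA gene has an SMC1 peak.

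Peak strength is given on the -log10 scale of the q-value from MACS3, and as fold enrichment over the local background of the same library. In PCDHA the 5 promoters with a CTCF peak were PCDHA5 at a -log10 q of 20.6, PCDHA4 at 11.4, PCDHA3 at 8.31, PCDHA8 at 6.23 and PCDHA11 at 3.94. None of the 6 CTCF peaks in this subcluster overlapped an SMC1 peak. Except at PCDHA3, the summits of these peaks lay 595 to 682 bp after a start and inside the variable first exon, which codes for the extracellular cadherin repeats. At PCDHA11 the nearest start is not that of the gene record, from which the summit lay at 1456 bp. PCDHA4 had another, weaker CTCF peak of 3.42, with its summit at -383 bp and outside the exon. The C-type genes PCDHAC1 and PCDHAC2, which in neurons escape the choice among isoforms, had no peak of either target and no loop.

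The first exons of PCDHA also held matches to the CTCF motif. Within 1000 bases after the start, 12 of 15 PCDHA genes (80.0%) held a CTCF match of at least 10 bits, 11 of them forward, with the centre of the match at a median of 598 bp. The same stretch held such a match in 2 of 16 PCDHB genes and 5 of 22 PCDHG genes. The share over all genes was not computed for this stretch. In the shorter promoters of 300 bp it was 41.7%. The matches inside the peaks of PCDHA4, PCDHA5 and PCDHA8, printed above, scored 16.3, 13.6 and 13.1 bits. The printed PCDHA11 site, of 13.8 bits, lies farther on, at 1383 bp from the start of the gene record, and within the first 1000 bases PCDHA11 held a match of 11.2 bits. The letters of PCDHA5, which had the strongest peak, are unlike those of the other lines. PCDHA7, PCDHA12 and PCDHA13 held exonic matches of 14.9, 13.7 and 14.0 bits and had no listed peak. A match of this strength was thus present at PCDHA genes with and without a peak.

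In PCDHB the CTCF peaks were at PCDHB9 (25.2 as -log10 q), PCDHB10 (18.9), PCDHB7 (12.0), PCDHB15 (11.7), PCDHB5 (9.56) and PCDHB3 (5.02). PCDHB genes encode adhesion proteins without the shared cytoplasmic part. Here the motif overlapped the promoter word rather than an exon. The best match overlapped CGCTG in all 12 of the PCDHB promoters that held the word, as in the PCDHB9 and PCDHB10 lines above. The scores of those 2 promoters, 18.0 and 15.4 bits, were the highest among the 47 members with a promoter sequence, and their CTCF peaks were the strongest in the subcluster. Across PCDHB the best match scored 8.53 to 18.0 bits (median 12.4) at the 6 genes with a CTCF peak and 6.09 to 12.2 bits (median 10.4) at the 8 sequenced genes without one, so the ranges overlapped. The 2 SMC1 peaks were weak, at PCDHB14 with a -log10 q of 5.67 and at PCDHB9 with 3.79, and with the limit set at 10 no PCDHB promoter kept one.

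PCDHG promoters carried the strong peaks of the family. CTCF peaks had a median -log10 q of 37.6 over the 17 genes, between 2.82 at PCDHGA9 and 206 at PCDHGA12, and SMC1 peaks a median of 31.2 over the 14 genes, between 3.61 at PCDHGA4 and 154 at PCDHGA12. All peaks of the genome had medians of 19.6 for CTCF and 13.7 for SMC1. PCDHGA12 led both lists, with a fold enrichment of 13.5 for CTCF and 8.75 for SMC1. PCDHGC3, a C-type gene, followed with a -log10 q of 179 for CTCF and 134 for SMC1. PCDHGB6 came next with 169 and 77.7. These 3 genes stood far above the next ones, PCDHGA3 at 48.4 for CTCF and PCDHGB1 at 46.3 for SMC1. PCDHGB5, PCDHGB4, PCDHGA4 and PCDHGB7 completed the highest 8 for CTCF with 46.6, 44.2, 39.1 and 38.6. For SMC1 the highest 8 were completed by PCDHGB2 with 42.0, PCDHGB7 with 36.0, PCDHGB3 with 32.3 and PCDHGA11 with 30.

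The 3 kinds of PCDHG gene, named from the similarity of their variable exons, differed in how many were occupied. All 7 PCDHGB genes had peaks of both targets. Of the 12 PCDHGA genes, 6 had both and 3 more (PCDHGA6, PCDHGA8 and PCDHGA9) had CTCF alone, at 10.6, 5.38 and 2.82. PCDHGA1, PCDHGA5 and PCDHGA7 had no peak. Among the C-type genes PCDHGC3 had both, while PCDHGC4 and PCDHGC5 had no peak within 1 kb of a start. With the limit raised to a -log10 q of 10, 12 of the 53 members had an SMC1 promoter peak, against 52.7% of all genes, and 21 a CTCF promoter peak, against 31.5%.

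Most occupied PCDHG promoters had poor matches to the CTCF motif. Of 20 PCDHG promoters 1 (5.0%) held a match of at least 10 bits, PCDHGB2 with 10.2, whereas 8 of 13 in PCDHA (61.5%) and 10 of 14 in PCDHB (71.4%) did, against 41.7% of 15315 genes. The median best match was 6.04 bits in PCDHG, 10.5 in PCDHA and 11 in PCDHB, against 9.30 for all promoters. PCDHGC3 scored 3.52 bits and PCDHGB6 scored 7.16, although their CTCF peaks were among the 3 strongest of the family. The strongest, PCDHGA12, has no entry in the promoter table and is not in these counts, and its peak held a forward match of 13.3 bits centred at -48 bp from the start. In PCDHG the best match overlapped CGCTG in 6 of 20 promoters, against 12 of 14 in PCDHB and 6 of 13 in PCDHA. PCDHG thus had the lowest median motif score of the subclusters and the highest median CTCF peak.

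**Figure D3:**
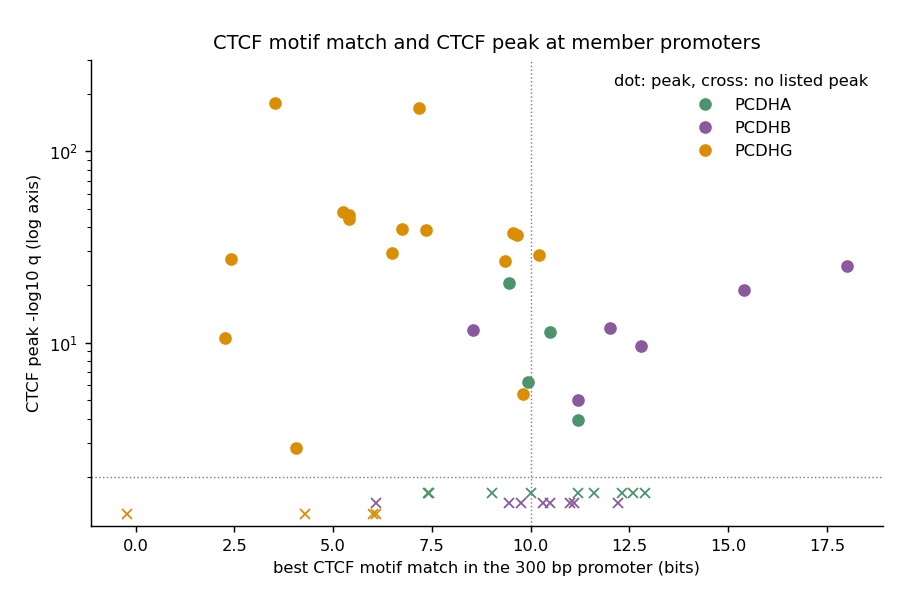
Best CTCF motif match in the 300 bp promoter (bits) against the -log10 q of the CTCF peak (log axis) for the 47 members with a promoter sequence, with crosses for members without a listed peak and dotted lines at 10 bits and at the limit of the list. PCDHG genes lie to the upper left, PCDHB9 and PCDHB10 to the right, and 1 PCDHG promoter reaches 10 bits (PCDHGA12 is not plotted).

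Base composition also differed among members. The median GC content of the promoters was 37.3% in PCDHA, 40.8% in PCDHB and 42.0% in PCDHG, against 62.5% for all promoters. PCDHAC1 and PCDHAC2 with 66.0% and 63.0%, and PCDHGC3 and PCDHGC4 with 59.0% and 62.3%, were close to the typical promoter, and of these 4 genes PCDHGC3 alone had peaks. PCDHGB5 with 60% and PCDHGB4 with 58.7% were also close to it, and both had peaks of both targets. PCDHGB promoters had a median of 51.3% and PCDHGA promoters 38.3%. The median ratio of observed to expected CpG was 0.593 in PCDHA, 0.631 in PCDHB and 0.527 in PCDHG, against 0.743 for all promoters. The part of GC content in the peak calls was not tested.

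The members are similar in sequence, and the authors removed reads of low mapping quality before they called peaks. Within 1 kb of a start, the share of 100-base words found again in the window had a median of 0% in each subcluster. PCDHB8 and PCDHB13 had the highest share, 28.7% each, and neither had a peak. PCDHGB4 and PCDHGB5 had 20.7% each, and both had peaks of both targets. PCDHA7 had 19.3% and no peak. The part of repeated sequence in these absences was not tested.

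Summits lay at different places in the 3 subclusters. For each gene the strongest CTCF peak within 1 kb was taken, with its distance to the nearest start. Its summit was within 200 bp of that start at 15 of the 17 PCDHG genes, 3 of the 6 PCDHB genes and 0 of the 5 PCDHA genes. Median positions relative to that start, negative when before it, were -35 bp in PCDHG, -44.5 bp in PCDHB and 614 bp in PCDHA. Inside the whole peak, a match of at least 10 bits was found in 5 of 6 CTCF peaks in PCDHA and in 5 of 6 in PCDHB, all 10 of them forward, and in 5 of 24 peaks in PCDHG. Among all 62869 CTCF peaks of chromosomes 1 to 22 and X it was found in 53.7%.

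Between the subcluster ends, few other sites were bound. The gap from PCDHA to PCDHB held 1 site, about 10 kb before PCDHB1, with a CTCF peak at chr5:141041161-141041729 of -log10 q 19.5 and an SMC1 peak of 16.6. It lies between coding genes, and its motif match of 16.4 bits is reverse, facing the PCDHA genes. An enhancer for PCDHA known as HS5-1 is described beyond the last PCDHA gene, and whether this site is that element was not tested. No loop in either list had an anchor there. The gap from PCDHB to PCDHG held 2 sites bound by both proteins. The nearer one, with its summit at -4250 bp from the start of PCDHGA1, had a CTCF peak of 181 and an SMC1 peak of 85.6. Its motif match, printed above, ends in CGCTG. The other lay in an exon of TAF7, a subunit of the general transcription factor TFIID, with 148 for CTCF and 17.6 for SMC1.

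**Figure D4:**
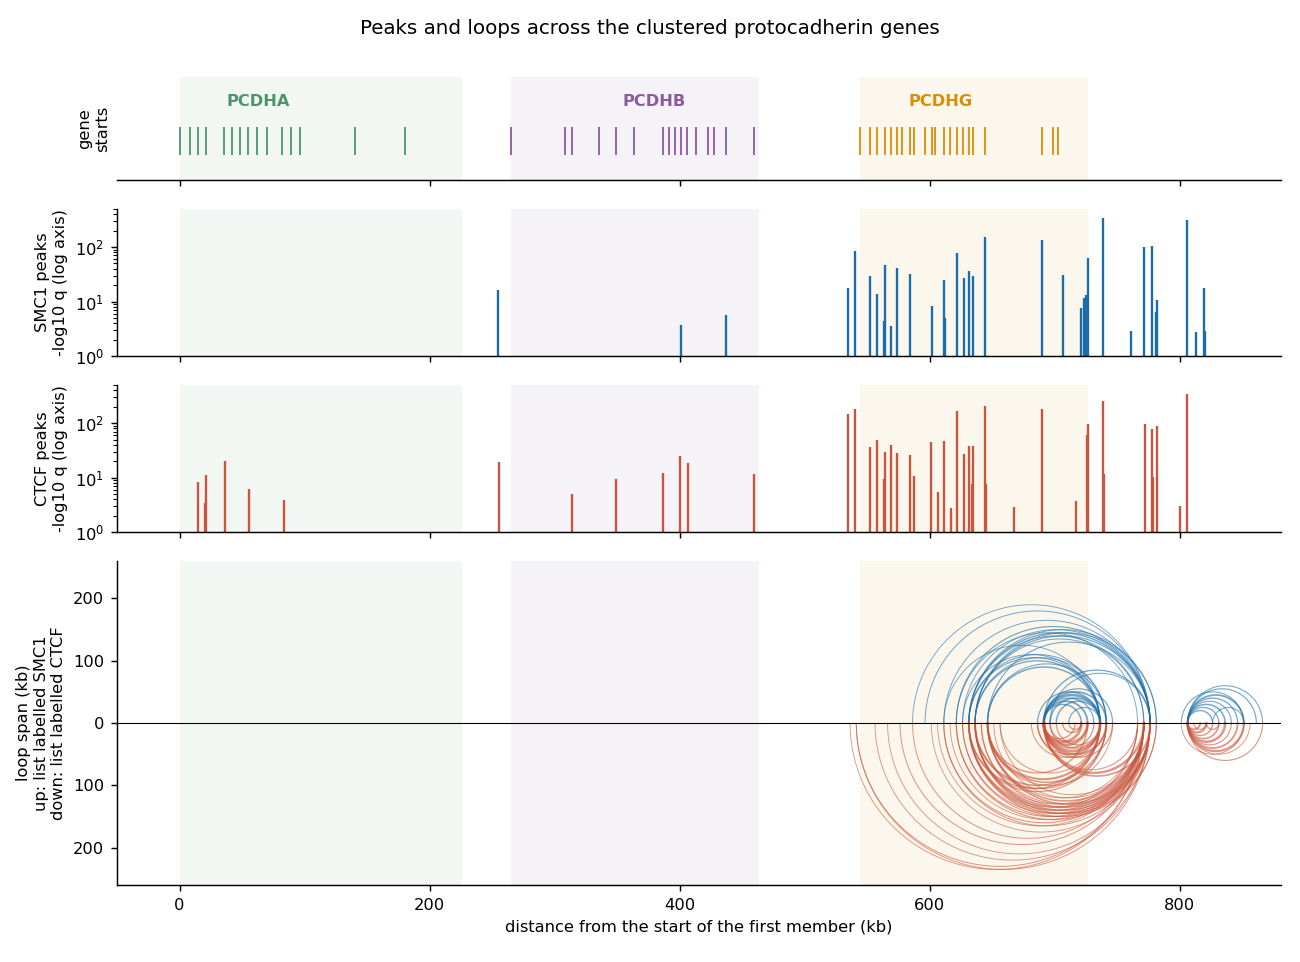
Gene starts, peaks (-log10 q, log axis) and loops along the window, as the distance from the start of the first member in kb, with the subclusters shaded. Arcs join the 2 anchors of a loop and their height equals the loop's span, upward for the SMC1-labelled list and downward for the CTCF-labelled list, and no arc has an end in PCDHA or PCDHB.

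Peaks were dense in PCDHG and just after it. PCDHG held 22 SMC1 and 24 CTCF peaks, or 12.1 and 13.2 per 100 kb, against 3.20 and 2.07 per 100 kb over the genome. PCDHA held 0 and 6, and PCDHB 2 and 6, which is 0 and 2.65 per 100 kb and 1.01 and 3.03 per 100 kb. The 100 kb after PCDHG, which lie in DIAPH1, held 10 SMC1 and 8 CTCF peaks. The 50 kb before PCDHA held none. Besides the promoters, the shared 3′ end of PCDHG was bound. The last constant exon, which all 22 PCDHG transcripts use, had a CTCF peak of 95.8 and an SMC1 peak of 62.5, and the peak holds a reverse match of 20.9 bits. The strongest peaks of the window lay at 2 sites in introns of DIAPH1, with CTCF peaks of 346 and 251 and SMC1 peaks of 307 and 337.

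Of the CTCF peaks in the window, 28 of 47 overlapped an SMC1 peak by at least 1 bp, which is 59.6% (95% Wilson interval 45.3 to 72.4, for counting error only), against 75.9% of all CTCF peaks. Neighbouring peaks of a gene family are not independent, so the intervals here are too narrow to compare these shares with those of all peaks. The lower share came from the first 2 subclusters, with 0 of 6 in PCDHA and 1 of 6 in PCDHB, against 18 of 24 in PCDHG. In the other direction, 27 of 37 SMC1 peaks overlapped a CTCF peak, 73.0% (57.0 to 84.6), against 47.1% of all SMC1 peaks. A reciprocal overlap of 50% lowered the first share to 36.2%, and with both lists limited to a -log10 q of at least 10 it was 69.7%. Shares of all CTCF peaks under these settings are not given here.

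The second question was which members touched other sites. Loops were called by the authors with MAPS on pairs of 5 kb bins, each with a count of read pairs and the number expected for that pair. The labels and the study's supplement disagree on these lists, because the loop number that the supplement gives for CTCF is that of the SMC1-labelled file, and the reverse. The names used here follow the labels, and exchanged the lists would give 71 window loops for SMC1 and 43 for CTCF. Loops called in the study have at least 1 anchor enriched for the target. In the CTCF-labelled list, the loop from chr5:141490001-141495000 to chr5:141505001-141510000 had SMC1 peaks at both anchors and no CTCF peak. The same held for the loop from chr5:141595001-141600000 to chr5:141605001-141610000. The loop from chr5:141495001-141500000 to chr5:141505001-141510000 had an SMC1 peak at 1 anchor and no CTCF peak at either. Every window loop labelled SMC1 had peaks of both targets in its anchors. Which labelling is right was not tested.

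The loops of the window began in PCDHG, in the gap before it or in the flank after it, in both lists. No PCDHA or PCDHB gene had its start in an anchor of either list. In PCDHG 12 of 22 genes (54.5%) had a start in an anchor of the SMC1-labelled list and 18 (81.8%) in one of the CTCF-labelled list, against 23% and 45.3% of all protein-coding genes. For all 53 members this was 22.6% and 34.0%. Loops from PCDHG to the flank in DIAPH1 made up 31 of 43 and 48 of 71 loops, and 29 and 40 of these left a bin that holds a member's start. Many loops used the same bin: they left 13 and 21 distinct PCDHG bins, and 11 and 16 of these bins hold a start. The share of all PCDHG bins that hold a start is not given here. The median ratio of observed to expected read pairs of these loops was 3.17 in the SMC1-labelled list and 4.23 in the CTCF-labelled list, and their median spans were 110 kb and 128 kb. The other loops joined bins within PCDHG (2 and 7), the gap before PCDHG to the flank (0 and 3), bins within the flank (1 and 4), and the flank to regions beyond the window (9 and 9).

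**Figure D5:**
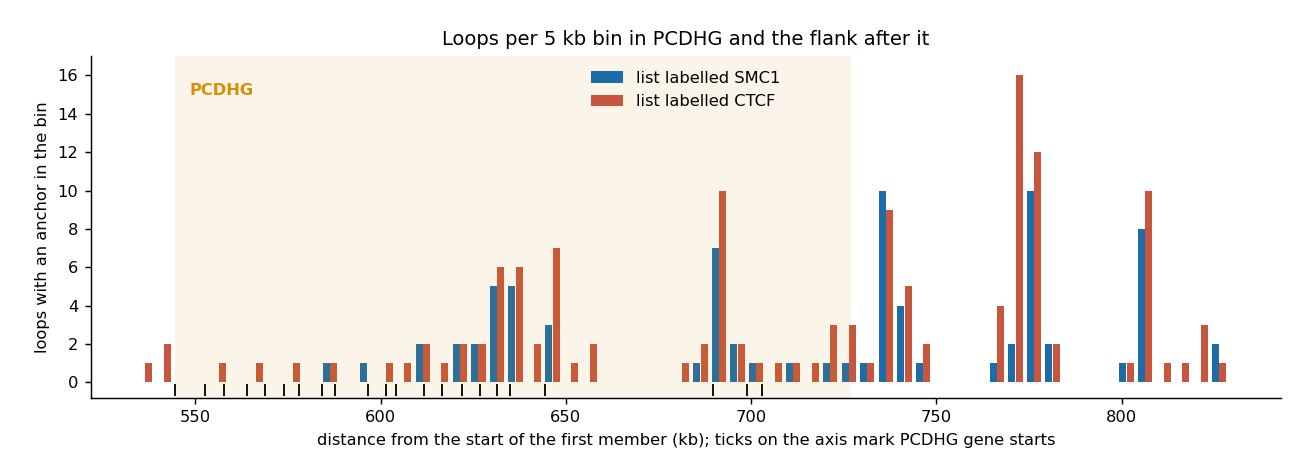
Number of loops with an anchor in each 5 kb bin from the gap before PCDHG to the end of the window, as the distance from the start of the first member in kb, for both loop lists, with PCDHG shaded and its gene starts ticked. In PCDHG the bin of PCDHGC3 has the most loops, 7 and 10, and in the flank the highest bin has 16 loops in the CTCF-labelled list.

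PCDHGC3 was the member with the most loops. The bin that holds its start took part in 7 loops in the SMC1-labelled list and 10 in the CTCF-labelled one. Most ran to adjacent bins, in the SMC1-labelled list from chr5:141505001 to 141535000, so they are not separate contacts. The median ratio of observed to expected read pairs of the bin was 2.61 and 3.26. It was 3.14 and 4.73 for the bin of PCDHGB7 and 3.25 and 4.65 for that of PCDHGA12. The loop of PCDHGC3 to the DIAPH1 bin at chr5:141520001-141525000, 45 kb away, had the most read pairs of any loop with an anchor in PCDHG. These were 127 against 26.9 expected and 285 against 47.1 expected. That bin holds the DIAPH1 site with the reverse match of 20.9 bits printed above. PCDHGC3 also joined the shared 3′ end of PCDHG at chr5:141510001-141515000, with 76 and 154 read pairs in the 2 lists. In the CTCF-labelled list it reached the bin at chr5:141555001-141560000 with 121 read pairs, 80 kb away. Taking in each list the 8 loops with the most read pairs among those with an anchor in PCDHG or a gap, the other loops of PCDHGC3 had 65 and 50 in the SMC1-labelled list and 140, 106 and 66 in the CTCF-labelled one. PCDHGC4 and PCDHGC5, which lie just after it, also appeared among those 8, with 55 read pairs from the bin of PCDHGC4 and 49 from the bin of both starts, in the SMC1-labelled list. In the SMC1-labelled list the bins with the most loops lay in DIAPH1. They were chr5:141520001-141525000 with 10 loops, chr5:141560001-141565000 with 10 and chr5:141590001-141595000 with 8. The loops of the bin at chr5:141590001-141595000 all ran to bins after it, and none reached PCDHG in either list. In the CTCF-labelled list the bin at chr5:141555001-141560000 had 16 loops and the one after it 12.

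After PCDHGC3, the PCDHG starts whose bins had the most loops were those of PCDHGA12, PCDHGB7 and PCDHGA11. PCDHGA12 joined the bin at chr5:141520001-141525000 with 48 read pairs against 11.7 expected in the SMC1-labelled list and 94 against 16.5 in the CTCF-labelled list, and its bin had 3 and 7 loops. PCDHGB7 had 5 and 6 loops, and its loop of 145 kb to chr5:141560001-141565000 had 45 read pairs against 5.87 expected in the SMC1-labelled list, a ratio of 7.66 that was the highest of the PCDHG loops there. PCDHGA11 joined chr5:141555001-141560000 in the CTCF-labelled list with 75 read pairs against 11 expected. PCDHGA1, PCDHGA2 and PCDHGA4 had their starts in no anchor of either list, although the last 2 had promoter peaks. The start of PCDHGA4 lies close to a bin edge. Its CTCF summit, at -33 bp, falls in the bin before, chr5:141350001-141355000, which had 1 loop in the CTCF-labelled list. PCDHGC4 and PCDHGC5, which had no promoter peak, still lay in anchors, with 3 and 1 loops in each list, and a 5 kb bin cannot tell a promoter from what lies beside it.

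The longest loops reached promoters in the first part of PCDHG. The longest loop from PCDHG to the flank in the SMC1-labelled list spanned 190 kb, from the bin of PCDHGB3 and PCDHGA6, with 12 read pairs, the lowest number in either list. In the CTCF-labelled list the longest left the bin of PCDHGA3 and spanned 220 kb with 14 read pairs, and loops of 235 kb came from the gap before PCDHG, where 2 bins joined the flank with 15 and 14 read pairs. These long loops rest on few read pairs. With only loops of at least the median read pairs of their list (21 and 23), the CTCF-labelled list kept 46 of its 71 window loops.

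Most window loops were in both lists. Allowing each anchor to differ by 15 kb, 42 of 43 window loops labelled SMC1 had a match in the CTCF-labelled list (97.7%, interval 87.9 to 99.6), against 91.7% of all loops labelled SMC1. In the other direction it was 66 of 71 (93.0%, interval 84.6 to 97), against 53.4% of all loops labelled CTCF. Window loops share anchors, and loops of neighbouring bins can match the same loop within 15 kb. They are not independent counts, so the intervals are too narrow to compare these shares with those of all loops.

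Motif direction was read at both anchors of the 80 distinct bin pairs. With the best match of at least 10 bits anywhere in each 5 kb anchor, 20 of 54 pairs with a match at both ends were convergent, that is forward on the left and reverse on the right (37.0%, interval 25.4 to 50.4), against 48.4% over the genome. In 30 pairs both matches had the same direction and in 4 they were divergent. The share depended on the minimum: at 13 bits it was 11 of 13 (84.6%), against 58.2% over the genome. With the match sought only inside CTCF peaks, a setting chosen after the data were seen, 12 of 13 pairs were convergent (92.3%, interval 66.7 to 98.6), against 63.6% over the genome. The 4 reverse matches in DIAPH1 peaks, of 15.9 to 20.9 bits, face the PCDHG genes. Under either of the stricter settings 13 pairs had a match at both ends, so these shares rest on few pairs. Several of the pairs share a bin, so they are not independent and the intervals are too narrow.

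Other protocadherins, which stand alone in the genome, were set beside the clustered ones. Of 12 such genes 3 had an SMC1 peak at the promoter (PCDH1, PCDH9 and PCDH18, at 114, 16.1 and 6.70), 1 had a CTCF peak (PCDH1, at 232), and 2 (PCDH1 and PCDH12) had a start in an anchor of each list. PCDH1 and PCDH12 lie near the cluster on chromosome 5. Peaks of both targets were thus present at 1 of these 12 genes and at 15 of the 53 clustered ones (28.3%), against 39.4% of all protein-coding genes.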

How the data were processed

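Per the labels and the study's methods, HiChIP of SMC1 and CTCF in the HG00731 LCL was made in 2 replicates per target. Reads were mapped by the authors with BWA-MEM (hg38), duplicates and reads of low mapping quality were removed, replicates were pooled, and MACS3 3.0.1 was run without input to a q-value limit of 0.01. The peak lists that the authors deposited hold fold enrichment (a ratio to the local background) and the -log10 of the q-value. The loop lists that the authors deposited hold raw counts of read pairs per pair of 5 kb bins, the expected count, and the false discovery rate of MAPS, a q-value that was not used further. The submitters' processing notes also name bcl2fastq 2.17 and deepTools. The lists give no depth for either replicate, so the precision of a peak is unknown, and intervals (Wilson, 95%) cover counting error only.

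A promoter peak was a summit within 1 kb of a start of any protein-coding transcript in GENCODE release 44. Overlaps needed 1 bp and loop matches 15 kb at each anchor. The CTCF motif (19 bp, 13.0 bits in all) was learned by expectation maximization on 50 bases either side of 3000 summits outside chromosome 5, scored on both strands with a minimum of 10 bits, and tested on simulated data. Promoter sequences came from RefSeq. Tables were handled with pandas 2.3.3 and NumPy 2.4.6 in Python 3.11.15, intervals were computed with SciPy 1.17.1, the scan was compiled with Numba 0.67.0, and plots were drawn with Matplotlib 3.10.9. Members and lists were chosen with earlier results of these data known. All members were counted. Named were, per subcluster, up to 8 members per list with the highest -log10 q and all C-type genes, the 2 strongest peaks per zone and list, and per list the 8 loops with the most read pairs among those with an anchor in a subcluster or gap, the longest loop and the bins with the most loops. Lists of 12 other protocadherins, 5 B cell genes (1 more is not reported here) and 4 other genes of the window were used beside them. Of the other window genes, 3 had an SMC1 promoter peak and 2 a CTCF promoter peak. The DIAPH1 peaks among these, 337 for SMC1 and 251 for CTCF, are those of the intronic site described above. The start of the DIAPH1 gene record lies outside the window. The SMC1 peak of ENSG00000279983, at 5.67, is the one also counted for PCDHB14. Alternatives changed the peak limit, the promoter distance, the overlap, the loop list, the window and the motif. With 1 list per target no test was made.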

Additional observations from a re-analysis of the deposited data

How the results depend on the processing

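The numbers of peaks in the window and of members with a promoter peak stayed within 1.5 times the reported value with a -log10 q of at least 5 or 10, without flanks, and with a promoter distance of 500 bp or 2 kb. With the loop lists exchanged, SMC1 had 71 window loops and CTCF 43, and with at least the median read pairs the list labelled CTCF had 46. The share of CTCF peaks that overlap an SMC1 peak fell to 44.7% with summits at most 200 bp apart and to 36.2% with a reciprocal overlap of 50%. With both lists at a -log10 q of at least 10 it was 69.7%. Without tolerance 79.1% of window loops labelled SMC1 matched. The convergent share was 84.6% at 13 bits, 92.3% with matches inside CTCF peaks (added after seeing the data) and 100% with matches within 100 bp of a CTCF summit, where 1 pair was left. The stricter settings leave fewer pairs, and the cause of the higher share was not tested. Leaving out a replicate was not possible, since replicates were pooled before deposit. No paired analysis was possible because the lists carry no replicate values and no result comes from a test.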

Other observations

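Of the 5 PCDHG CTCF peaks with a match of at least 10 bits, 3 held a forward and 2 a reverse match. The peak of PCDHGA4, of -log10 q 39.1, held a reverse match of 15.7 bits inside the variable first exon, and the other reverse match lay in the last constant exon. The forward matches lay in the first exons of PCDHGB2 and PCDHGA11, with 10.2 and 10.1 bits, and before the start of PCDHGA12, with 13.3 bits. PCDHGA4 had a weak SMC1 peak of 3.61, the lowest of the 14 PCDHG promoters with one, and the bin of its start had no loop in either list. Its CTCF summit lies in the bin before, which had 1 loop in the CTCF-labelled list.

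The strongest CTCF peak of the window, at 346 in an intron of DIAPH1, held a forward match of 14.2 bits, unlike the reverse matches of the other DIAPH1 sites nearer to PCDHG. The bin from chr5:141590001 to 141595000 around it had 8 loops in the SMC1-labelled list and 10 in the CTCF-labelled one.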
